A study of Mus musculus with 8 samples.

Results

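Endothelial and angiogenic genes comprised 39 genes chosen by symbol, out of the 37583 genes counted in every library. All 39 had a row and all 39 passed the filter on low counts, which left 15228 genes for testing. The tissue was whole mouse kidney. Libraries of kidneys labelled knockout were made from 4 whole kidneys of mice with the genotype b-actinCreERT2+TFAP2Bfl/fl, and libraries labelled wildtype (WT) from 4 control littermates. In the knockout genotype a Cre recombinase fused to a tamoxifen-responsive receptor is driven by a beta-actin promoter, which is active in most cell types. Deletion therefore need not be limited to the nephron and could include endothelial cells, but it was not measured in any cell type here. The age of the mice, the inducing treatment and whether the littermates carried a floxed allele have no mention in the labels. Counts over the whole of Tfap2b were higher in knockout-labelled libraries (245 ± 14.1 CPM in knockout-labelled libraries and 103 ± 6.73 CPM in wildtype-labelled libraries, SD, n = 4 each), and since exons outside a deleted part are counted too, this does not check the deletion. Every direction is given by these labels.

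Endothelial cells line every vessel of the kidney, from arterioles through the glomerular and peritubular capillaries to the vasa recta and lymphatics. They depend on growth factors made largely by neighbouring epithelium: in the kidney, podocytes and tubule cells make vascular endothelial growth factor A (VEGF-A), which acts on the receptors VEGFR1 and VEGFR2 (genes Flt1 and Kdr) of the adjoining capillaries and keeps the glomerular endothelium fenestrated. A second receptor system, TIE2 and TIE1 with the angiopoietins, controls vessel stability, and VEGF-C with VEGFR3 (Flt4) controls lymphatic growth. In whole kidney, fewer cells of a type and less RNA per cell cannot be told apart.

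Gene counts per library came to 13435113 to 17930347 in knockout-labelled libraries and 13783857 to 17741722 in wildtype-labelled libraries. Levels are given as CPM, each gene's count relative to its library's total after edgeR's TMM scaling, and a gene was called when edgeR's quasi-likelihood test gave a Benjamini-Hochberg adjusted p under 0.05 over all 15228 genes. The labels do not say whether each kidney came from a separate mouse, so the p-values measure the spread between these 8 libraries. Kidney markers were abundant in every library, with 5 thick limb genes summing to 5425 to 6176 CPM in knockout-labelled libraries and 9169 to 11346 CPM in wildtype-labelled libraries. Libraries that stood apart were knockout 4, with 242 CPM summed over 8 adrenal cortex genes against 6.31 to 8.89 CPM in the others, and knockout 1, whose summed macrophage markers were the highest of all. A circadian clock score (the mean over 9 output genes less the mean over 3 activator genes, in log2 CPM) ran from -1.44 to 0.911 in knockout-labelled libraries and from 0.195 to 3.36 in wildtype-labelled libraries.

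Of the 39 members, 5 fell and 2 rose. The falling members were the ligands Vegfa and Vegfb, the receptors Kdr and Flt1, and Ehd3, an endocytic protein of glomerular endothelium. The rising members were the ligand Vegfc and Ednrb, the type B endothelin receptor. Over all 15228 genes tested, 868 or 5.7% fell and 949 or 6.23% rose, for 11.9% called in either direction. Log2 fold changes were below 0 for 31 of 39 members, or 79.5%, against 49.9% of all genes, and their median was -0.22 against 0.00 over all genes. With library totals in place of TMM factors the median of all genes moved to 0.11 and that of the members to -0.11, with 29 members below 0. Of the genes called over all, 76.5% were higher in knockout-labelled libraries with library totals and 52.2% with TMM factors. The groups did not overlap for 7 members, 5 lower and 2 higher in knockout-labelled libraries, where 9.05% of all genes were lower and 9.42% higher without overlap.

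**Figure D1:**
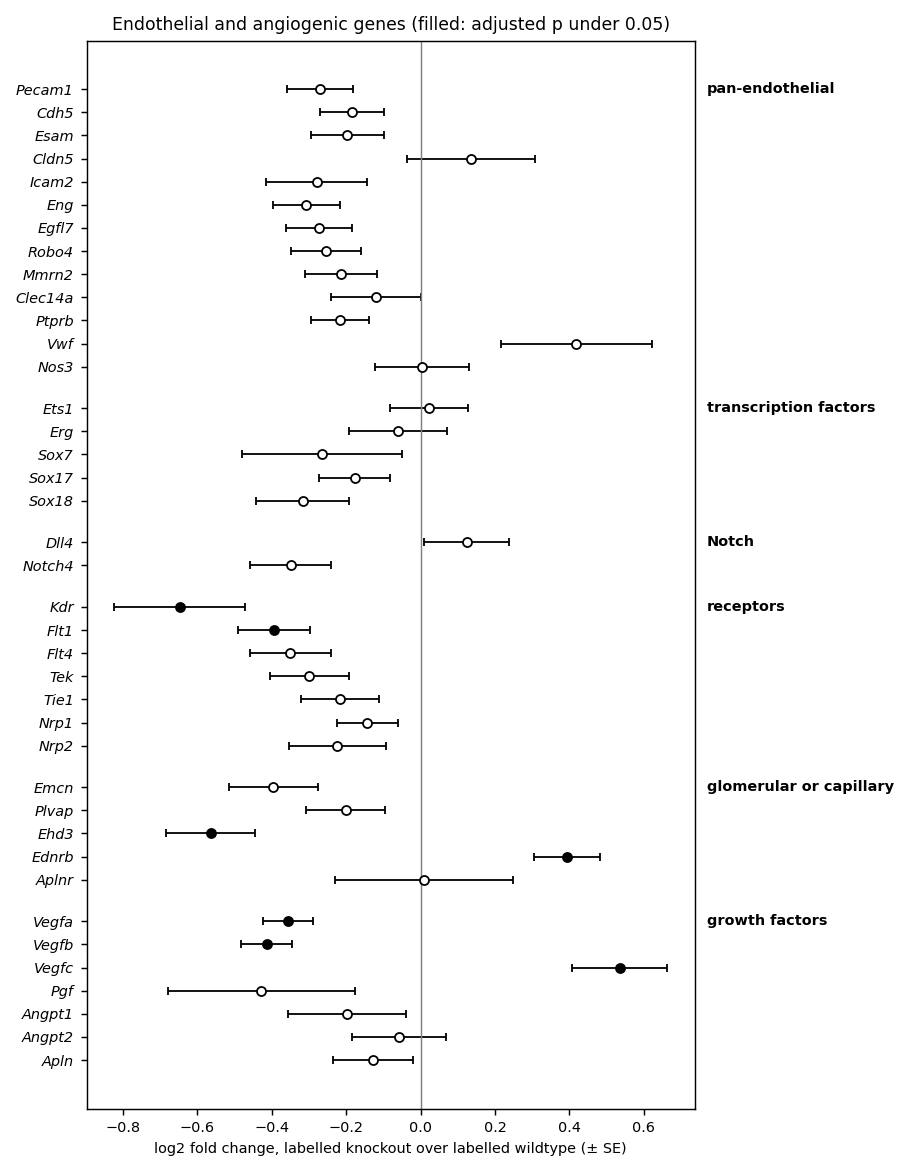
Log2 fold change of each member, labelled knockout over labelled wildtype, with its standard error (edgeR, n = 4 each), grouped by role. Filled points have adjusted p under 0.05. Most open points of the pan-endothelial and receptor groups lie between 0 and -0.4, while Vegfc and Ednrb lie to the right of 0.

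Among 7 growth factor genes, 2 fell, 1 rose and 4 were not called. Vegfa, the main angiogenic ligand of the kidney, had 265, 275, 280.3 and 278 CPM in knockout-labelled libraries, against 354, 329.7, 362 and 361 CPM in wildtype-labelled libraries. Every library labelled knockout lay below every library labelled wildtype (edgeR log2 fold change -0.36 ± 0.067 SE, adjusted p = 0.00630). Vegfb, a ligand of VEGFR1, had 51.2, 60.3, 58.2 and 57.6 CPM in knockout-labelled libraries, against 78.3, 74.2, 76.2 and 74.2 CPM in wildtype-labelled libraries. The groups again did not overlap (edgeR log2 fold change -0.41 ± 0.067 SE, adjusted p = 0.00301), and knockout 1 was the lowest. Vegfc, the ligand of VEGFR3, went the other way, with 7.31, 7.55, 7.66 and 6.79 CPM in knockout-labelled libraries, against 4.67, 5.26, 4.71 and 5.58 CPM in wildtype-labelled libraries. All 4 libraries labelled knockout lay above all 4 labelled wildtype (edgeR log2 fold change 0.53 ± 0.13 SE, adjusted p = 0.0206). Vegfb was called in all 20 alternative settings, and its log2 fold change stayed within -0.52 to -0.31. Vegfa was called in 18 of 20 settings. Its call ended with the clock score in the model (adjusted p = 0.0773) and with knockout 2 and 3 as the only libraries of their group (adjusted p = 0.0643). Vegfc, at 62 to 137 counts per library, was called in 13 of 20; its adjusted p was 0.0643 without knockout 2, 0.0536 without wildtype 1 and 0.0621 without wildtype 3, and 0.185 with the clock score in the model and 0.0739 with knockout 2 and 3 only.

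The other growth factor genes were not called. Placental growth factor, Pgf, was the least abundant per length of all members, at 0.818, 1.11, 1.45 and 1.30 CPM in knockout-labelled libraries, against 1.28, 1.68, 1.63 and 1.70 CPM in wildtype-labelled libraries (edgeR log2 fold change -0.43 ± 0.25 SE, adjusted p = 0.304). Angpt1, the ligand that activates TIE2, had 19.6, 16.6, 17.1 and 15.7 CPM in knockout-labelled libraries, against 20.6, 25.9, 14.3 and 18.7 CPM in wildtype-labelled libraries (edgeR log2 fold change -0.20 ± 0.16 SE, adjusted p = 0.460). For Pgf the groups overlapped through wildtype 1 alone, and for Angpt1 only wildtype 2 and wildtype 1 lay above every knockout-labelled library. Angpt2, a context-dependent antagonist of TIE2, had 24.8, 24.8, 24.0 and 34.5 CPM in knockout-labelled libraries, against 24.8, 32.0, 27.3 and 28.2 CPM in wildtype-labelled libraries. Knockout 4, the library with adrenal cortex transcripts, was the highest of all 8 for Angpt2. The log2 fold change of Angpt2 was -0.06 ± 0.13 with that library and -0.19 without it (edgeR adjusted p = 0.810 and 0.270). Apelin, Apln, a secreted peptide of tip cells, had a log2 fold change of -0.13 ± 0.11 (SE; edgeR adjusted p = 0.487).

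**Figure D2:**
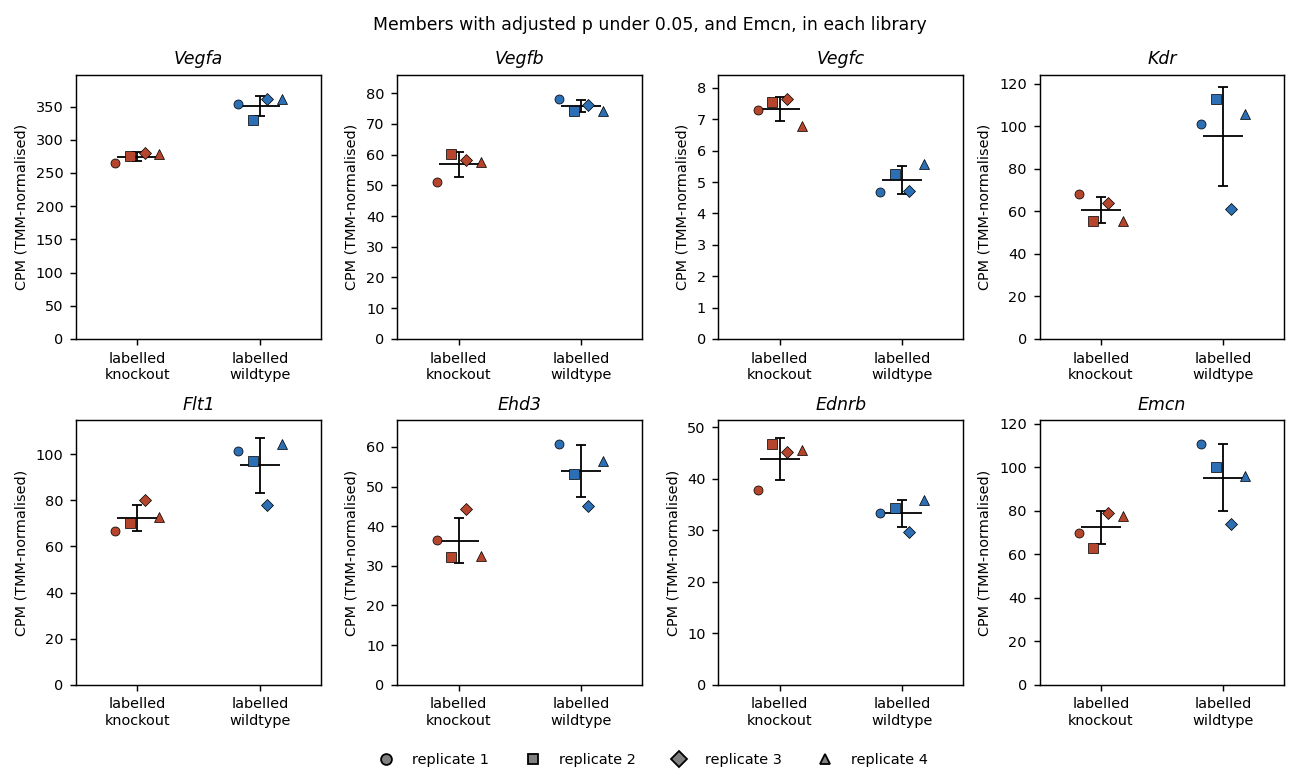
CPM (TMM-normalised, linear axis from 0) of the 7 called members and Emcn in each library; bars give the mean and SD of 4 libraries, and the symbol marks the replicate number. Vegfa, Vegfb and Ehd3 are lower, and Vegfc and Ednrb higher, in all 4 libraries labelled knockout; wildtype replicate 3 (diamond) lies among the knockout libraries for Kdr, Flt1 and Emcn.

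The 7 genes of the VEGF, angiopoietin and neuropilin receptors had log2 fold changes below 0, from -0.65 to -0.14, and 2 of them fell. Kdr, the main signalling receptor of VEGF-A, had 67.9, 55.5, 63.9 and 55.5 CPM in knockout-labelled libraries, against 101, 113, 61.1 and 106 CPM in wildtype-labelled libraries. The other 3 wildtype libraries stood above 100 CPM, and wildtype 3 lay among the libraries labelled knockout. Kdr passed narrowly (edgeR log2 fold change -0.65 ± 0.18 SE, adjusted p = 0.0448), and it lost its call without any 1 of 7 libraries, with adjusted p of 0.0620, 0.128, 0.0778 and 0.114 without knockout 1, 2, 3 and 4, and of 0.105, 0.0996 and 0.0994 without wildtype 1, 2 and 4. Without wildtype 3 the log2 fold change was -0.81 (adjusted p = 0.000670). Kdr was called in 5 of 20 settings; the call also ended with library totals, upper quartile factors, limma voom and no filter (adjusted p = 0.0692, 0.0550, 0.0631 and 0.103), with the clock score in the model (0.132) and with knockout 2 and 3 only (0.183). Flt1, which encodes VEGFR1 and its soluble decoy form, had 66.8, 70.1, 80.3 and 72.6 CPM in knockout-labelled libraries, against 102, 97.2, 77.9 and 104 CPM in wildtype-labelled libraries. Knockout 3 and wildtype 3 crossed over, and the other libraries were separate (edgeR log2 fold change -0.39 ± 0.097 SE, adjusted p = 0.0236). The call of Flt1 ended without knockout 2 or 4 (adjusted p = 0.0707 and 0.0592) and without wildtype 1, 2 or 4 (adjusted p = 0.0593, 0.0562 and 0.0649). It also ended with library totals (log2 fold change -0.29, adjusted p = 0.0530) and with knockout 2 and 3 only (adjusted p = 0.151), so that Flt1 was called in 11 of 20 settings.

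Flt4, which encodes VEGFR3 of lymphatic and fenestrated endothelium, had 14.3, 11.3, 13.1 and 11.8 CPM in knockout-labelled libraries, against 17.9, 15.1, 15.1 and 16.4 CPM in wildtype-labelled libraries. The groups did not overlap, but the edgeR test was missed (log2 fold change -0.35 ± 0.11 SE, adjusted p = 0.0599). Without knockout 1 the edgeR adjusted p was 0.0360, and DESeq2 called Flt4 with all libraries. Tek, which encodes the angiopoietin receptor TIE2, had 53.4, 46.4, 57.8 and 56.8 CPM in knockout-labelled libraries, against 66.1, 65.8, 54.7 and 77.0 CPM in wildtype-labelled libraries (edgeR log2 fold change -0.30 ± 0.11 SE, adjusted p = 0.0923); without wildtype 3 the adjusted p was 0.0385. Its partner Tie1 had a log2 fold change of -0.22 ± 0.10, and the co-receptors Nrp1 and Nrp2, which bind VEGF and semaphorins, had -0.14 ± 0.083 and -0.22 ± 0.13 (SE; edgeR adjusted p = 0.209, 0.298 and 0.297).

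The glomerular and capillary genes were divided, with 1 falling, 1 rising and 3 not called. Ehd3 had 36.4, 32.2, 44.4 and 32.5 CPM in knockout-labelled libraries, against 60.6, 53.3, 45.1 and 56.5 CPM in wildtype-labelled libraries. Knockout 3 was just below wildtype 3, and the groups did not overlap (edgeR log2 fold change -0.56 ± 0.12 SE, adjusted p = 0.0120). Ehd3 was called after leaving out any single library, with an adjusted p of at most 0.0417. With knockout 2 and 3 only, it was 0.109. Ednrb, which in kidney marks peritubular and vasa recta endothelium among other cells, had 37.8, 46.7, 45.1 and 45.5 CPM in knockout-labelled libraries, against 33.4, 34.3, 29.7 and 35.9 CPM in wildtype-labelled libraries. Knockout 1 was the lowest of its group and still above every wildtype library (edgeR log2 fold change 0.39 ± 0.089 SE, adjusted p = 0.0161). Without knockout 2 the adjusted p of Ednrb was 0.0545, and with the clock score in the model its log2 fold change was 0.20 (adjusted p = 0.389). Emcn, endomucin of capillary and venous endothelium, had 69.97, 62.8, 78.8 and 77.6 CPM in knockout-labelled libraries, against 111, 100.2, 74.0 and 96.0 CPM in wildtype-labelled libraries. Wildtype 3 lay inside the knockout range (edgeR log2 fold change -0.40 ± 0.12 SE, adjusted p = 0.0547), and without it the log2 fold change was -0.50 (adjusted p = 0.0109). With all libraries, Emcn was called by DESeq2, and by edgeR with no filter or with the clock score in the model. Plvap, which forms the diaphragms of fenestrated peritubular capillaries and is absent from mature glomerular capillaries, had 136, 147, 174 and 186 CPM in knockout-labelled libraries, against 199.9, 177, 167 and 197 CPM in wildtype-labelled libraries (edgeR log2 fold change -0.20 ± 0.11 SE, adjusted p = 0.251). The apelin receptor gene Aplnr had a log2 fold change of 0.01 ± 0.24 (SE; adjusted p = 0.988).

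None of the 13 pan-endothelial genes was called by edgeR at an adjusted p under 0.05, although 10 had log2 fold changes below 0 (median -0.21) and 6 had an unadjusted p under 0.05, as did 27.1% of all genes; DESeq2 and limma voom each called 1 of them, Eng. Eng, the TGF-beta co-receptor endoglin, came closest. It had 135, 104, 125 and 123 CPM in knockout-labelled libraries, against 144, 160.0, 136 and 161 CPM in wildtype-labelled libraries. The groups did not overlap, by a narrow margin between knockout 1 and wildtype 3 (edgeR log2 fold change -0.31 ± 0.091 SE, adjusted p = 0.0502). Without knockout 1 or wildtype 3 the adjusted p of Eng was 0.0294 and 0.0478. Egfl7, a secreted endothelial matrix protein, had 54.7, 49.99, 44.8 and 51.6 CPM in knockout-labelled libraries, against 67.5, 64.4, 54.4 and 56.8 CPM in wildtype-labelled libraries with overlap (edgeR log2 fold change -0.27 ± 0.089 SE, adjusted p = 0.0704). The junction genes Pecam1 and Cdh5, which define endothelium, averaged 66.5 ± 6.05 CPM in knockout-labelled libraries and 80.3 ± 7.75 CPM in wildtype-labelled libraries, and 40.6 ± 2.998 CPM in knockout-labelled libraries and 46.2 ± 4.21 CPM in wildtype-labelled libraries (SD, n = 4 each). Their log2 fold changes were -0.27 ± 0.089 and -0.18 ± 0.085 (SE; adjusted p = 0.0734 and 0.191).

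The other pan-endothelial surface and junction genes with values below 0 ran from -0.28 for the adhesion molecule Icam2 to -0.12 for the lectin Clec14a on the log2 scale. They included the guidance receptor Robo4 (-0.25; adjusted p = 0.0394 without wildtype 3 against 0.105), the phosphatase Ptprb that dephosphorylates TIE2 (-0.22), the matrix protein Mmrn2 (-0.21) and the junction molecule Esam (-0.20). Values were above 0 for the tight junction gene Cldn5 (0.14, or -0.11 with the clock score in the model) and for Vwf, which encodes von Willebrand factor of larger vessels and platelets. Vwf had 12.9, 13.5, 8.56 and 11.6 CPM in knockout-labelled libraries, against 6.78, 7.09, 8.61 and 12.2 CPM in wildtype-labelled libraries. Knockout 3 and wildtype 4 made the groups overlap (edgeR log2 fold change 0.42 ± 0.20 SE, adjusted p = 0.215). Nos3, the endothelial nitric oxide synthase, had a log2 fold change of 0.00 ± 0.13 (SE), at 7.51 ± 0.875 CPM in knockout-labelled libraries and 7.48 ± 0.340 CPM in wildtype-labelled libraries (SD, n = 4 each). Nos3 is uncertain because antisense genes, Atg9b among them, share up to 32.3% of its exon bases. Reads were counted without regard to strand, so those over shared bases cannot be placed by strand. Bases under more than 1 other gene may have entered this share more than once, so it is an upper limit. The same limit touches Sox17 and Angpt1, which share 16.8% and 14.2% of their exon bases with antisense genes. Egfl7 shares up to 12.8% with other genes, some on its own strand and some on the opposite strand.

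Of 5 endothelial transcription factor genes, edgeR called none; 1 had an unadjusted p under 0.05, and DESeq2 called none. Sox18, which acts in arterial and lymphatic specification, had 16.5, 11.8, 15.5 and 14.2 CPM in knockout-labelled libraries, against 19.1, 19.7, 15.3 and 18.4 CPM in wildtype-labelled libraries (edgeR log2 fold change -0.32 ± 0.12 SE, adjusted p = 0.127). Sox17, an arterial factor, had 17.4, 17.7, 14.4 and 15.8 CPM in knockout-labelled libraries, against 18.9, 19.3, 18.6 and 17.0 CPM in wildtype-labelled libraries (edgeR log2 fold change -0.18 ± 0.096 SE, adjusted p = 0.266). Both genes overlapped between the groups. Sox7 had a log2 fold change of -0.27 ± 0.21, and the ETS factors Erg and Ets1, the second of which lymphocytes also express, had -0.06 ± 0.13 and 0.02 ± 0.11 (SE; adjusted p = 0.465, 0.805 and 0.918; Erg had 0.04 with library totals only). The Notch genes of arterial endothelium, the receptor Notch4 and the ligand Dll4, were not called by edgeR either, with 1 unadjusted p under 0.05; DESeq2 called 1, Notch4. Notch4 had 23.5, 27.4, 27.2 and 25.6 CPM in knockout-labelled libraries, against 35.9, 26.9, 31.3 and 38.0 CPM in wildtype-labelled libraries, where wildtype 2 lay among the knockout libraries (edgeR log2 fold change -0.35 ± 0.11 SE, adjusted p = 0.0625; adjusted p = 0.0221 without wildtype 2). Dll4 had 15.8, 16.9, 17.6 and 14.4 CPM in knockout-labelled libraries, against 14.5, 14.3, 13.0 and 17.7 CPM in wildtype-labelled libraries and overlapped (edgeR log2 fold change 0.12 ± 0.11 SE, adjusted p = 0.530).

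**Figure D3:**
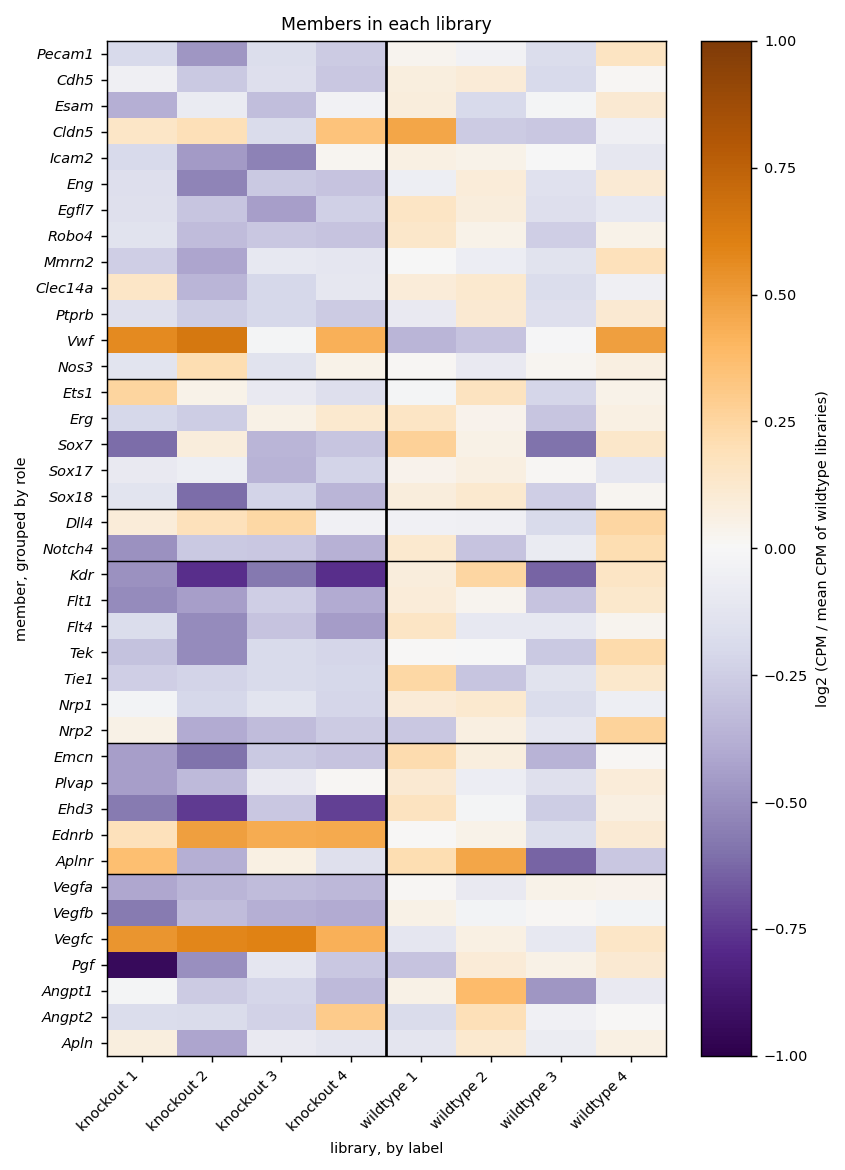
Log2 ratio of each member's CPM to the mean CPM of the 4 wildtype libraries (colour), with the members in rows by role and the libraries in columns, knockout left of the line. The knockout columns are mostly below 0 (purple) and above 0 (orange) for Vegfc and Ednrb; the wildtype 3 column is below 0 for most receptor and capillary genes but not for Vegfa and Vegfb.

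Wildtype 3 was the lowest of the 4 wildtype libraries for 24 of 39 members, or 61.5%, against 23.2% of all genes. This held for 5 of 5 glomerular and capillary genes and 9 of 13 pan-endothelial genes, but for 1 of 7 growth factor genes. It was also the lowest wildtype library for 9 of 10 podocyte markers. Without it 9 members fell in place of 5: Emcn, Eng, Robo4 and Tek were added, and 1 rose, Ednrb. Leaving out knockout 2, knockout 4, wildtype 1 or wildtype 4 left 3 falling members in each case, Ehd3, Vegfa and Vegfb. Summed over the 39 genes, the members held 1764 to 1893 CPM in knockout-labelled libraries and 1987 to 2316 CPM in wildtype-labelled libraries. By role, only the growth factor sums were separate, at 396 to 418 CPM in knockout-labelled and 497 to 516 CPM in wildtype-labelled libraries. In the same order, sums overlapped for pan-endothelial genes (498 to 557.9 and 557.6 to 654) and receptors (425 to 475 and 463 to 591). They also overlapped for glomerular or capillary genes (293 to 353 and 322 to 416), transcription factors and Notch genes.

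Counts of 2 genes within a library can be set against each other with no scaling factor. The denominators used, Cdh5 and Pecam1, had log2 fold changes of -0.18 and -0.27 themselves, uncalled, so each ratio also carries the difference in its denominator. Per 100 counts of Cdh5, Ehd3 had 81.8, 84.0, 107 and 85.1 counts in knockout-labelled libraries, against 125, 108, 112 and 121 counts in wildtype-labelled libraries. These ranges did not overlap, by a small margin between knockout 3 and wildtype 2. Ednrb had 84.9, 122, 109 and 119 counts per 100 of Cdh5 in knockout-labelled libraries, against 68.8, 69.2, 73.9 and 77.1 in wildtype-labelled libraries. Vegfc had 16.4, 19.7, 18.5 and 17.8 in knockout-labelled libraries, against 9.63, 10.6, 11.7 and 12.0 in wildtype-labelled libraries. For both rising genes every knockout ratio was above every wildtype ratio. Kdr had 152, 145, 155 and 145 in knockout-labelled libraries, against 208, 228, 152 and 227 in wildtype-labelled libraries, where wildtype 3 stood with the knockout libraries. Vegfa had 595, 717, 678 and 729 in knockout-labelled libraries, against 729, 665, 901 and 774 in wildtype-labelled libraries, and overlapped. With Pecam1 as the denominator, the groups were again separate for Ehd3, narrowly, and for Ednrb and Vegfc and overlapped for Kdr and Vegfa. Vegfb and Flt1 overlapped against both Cdh5 and Pecam1. These ratios are given without a test, since the pairs were chosen after the values were seen.

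**Figure D4:**
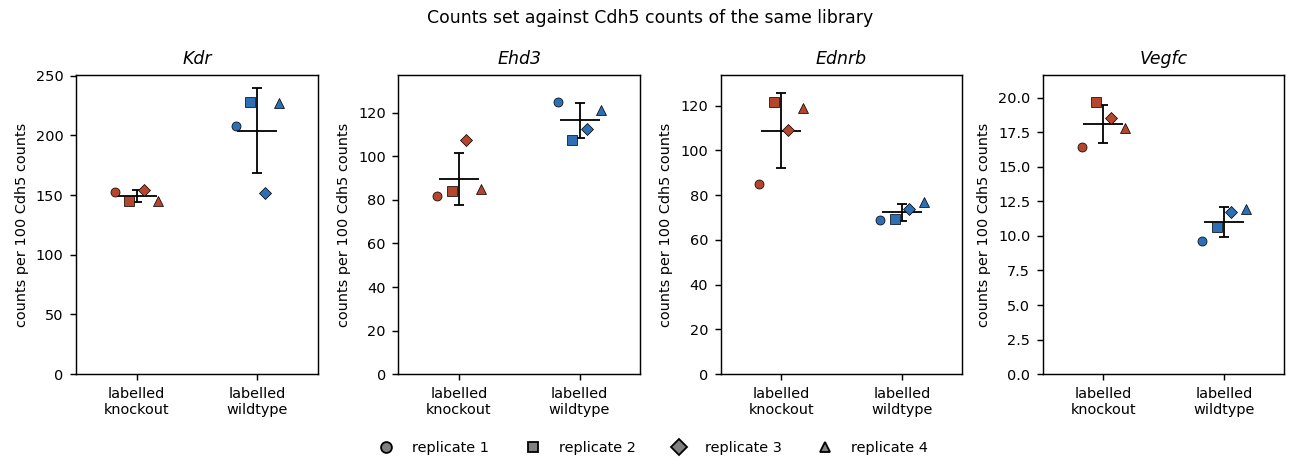
Counts of Kdr, Ehd3, Ednrb and Vegfc per 100 counts of Cdh5 in the same library (linear axis from 0), with the mean and SD of 4 libraries; symbols mark the replicate number. Ehd3 is lower and Ednrb and Vegfc are higher in every knockout library, while the wildtype 3 ratio for Kdr lies among the knockout ratios.

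Per kilobase of exon (GENCODE M21 lengths, whose annotation and build may differ from the authors'), Plvap was the most abundant member, at 81.1 CPM per kb in knockout-labelled libraries and 93.2 CPM per kb in wildtype-labelled libraries. Vegfa followed with 64.1 CPM per kb in knockout-labelled libraries and 82.0 in wildtype-labelled libraries, and Vegfb had 35.4 in knockout-labelled libraries and 47.2 in wildtype-labelled libraries. The receptors were lower, Kdr with 6.72 CPM per kb in knockout-labelled libraries and 10.5 in wildtype-labelled libraries, and Flt1 with 5.37 in knockout-labelled libraries and 7.06 in wildtype-labelled libraries. Vegfc stood below Vegfa and Vegfb, with 2.99 CPM per kb in knockout-labelled libraries and 2.06 in wildtype-labelled libraries.

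Promoter windows were taken from RefSeq (GRCm38.p6) for the 250 bases before each start and matched 23 of 39 members with 29 windows. The AP-2 consensus GCCNNNGGC, whose reverse complement is the same, was in 8 of these 29 windows and in 13.7% of 32851 windows of all genes. The bases just after the start matched a GENCODE M21 transcript of the same gene for 26 of the 29 windows. They did not for Vegfc and for a window each of Vegfa and Egfl7, the last of which holds an AP-2 match. Vegfa has more than a single window among the 8 of called members. Among these 8, the AP-2 consensus was in 3, those of Flt1, Ednrb and Vegfb. These 3 are shown because they are the called genes whose window holds the letters of the factor targeted in the study; capitals mark the match, and the base composition of the windows differs (70.4%, 56.8% and 76.4% G or C).
Flt1, chr5:147726012-147726261, minus strand: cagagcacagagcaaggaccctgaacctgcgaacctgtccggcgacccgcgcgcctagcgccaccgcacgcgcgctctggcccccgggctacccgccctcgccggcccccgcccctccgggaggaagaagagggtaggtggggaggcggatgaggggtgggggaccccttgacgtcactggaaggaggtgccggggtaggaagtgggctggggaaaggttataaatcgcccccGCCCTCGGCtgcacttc
Ednrb, chr14:103843702-103843951, minus strand: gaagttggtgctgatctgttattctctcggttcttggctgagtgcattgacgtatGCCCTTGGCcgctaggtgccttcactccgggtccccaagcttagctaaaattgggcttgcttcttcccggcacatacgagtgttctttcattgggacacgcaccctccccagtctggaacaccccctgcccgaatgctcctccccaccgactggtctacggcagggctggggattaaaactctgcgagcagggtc
Vegfb, chr19:6987652-6987901, minus strand: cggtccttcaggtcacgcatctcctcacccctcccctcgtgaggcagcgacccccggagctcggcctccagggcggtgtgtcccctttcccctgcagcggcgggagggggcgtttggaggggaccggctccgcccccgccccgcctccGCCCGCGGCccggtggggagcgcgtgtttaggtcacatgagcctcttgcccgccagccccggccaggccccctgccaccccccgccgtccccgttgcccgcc
The match begins 17 bases before the start in Flt1, 195 in Ednrb and 102 in Vegfb. Flt1 and Vegfb fell and Ednrb rose. The ETS letters CCGGAAG or CAGGAAG, on either strand, were in 7 of 29 member windows and in 17.0% of all windows, and in none of the 8 windows of called members. A match describes the letters only.

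Other vascular genes, 71 in 6 lists of which 66 were tested, moved both ways, with 7 rising and 7 falling and a median of 0.04. Over all genes tested, 6.23% rose and 5.7% fell. Of 22 further pan-endothelial genes, 3 fell and 2 rose. Log2 fold changes were below 0 for 15 of these 22, with a median of -0.03, nearer 0 than the -0.21 of the pan-endothelial members. Their sums overlapped, at 646 to 695 CPM in knockout-labelled libraries and 634 to 736 CPM in wildtype-labelled libraries. Heg1, a junction stabilising receptor, fell, with 37.3 ± 3.35 CPM in knockout-labelled libraries and 51.8 ± 0.938 CPM in wildtype-labelled libraries (SD, n = 4 each; edgeR log2 fold change -0.47 ± 0.075 SE, adjusted p = 0.00268), and Exoc3l2, an endothelial exocyst-related gene, had a log2 fold change of -0.43 ± 0.095 and adjusted p = 0.0145 (adjusted p = 0.0888 with knockout 2 and 3 only). Arhgef15, an endothelial exchange factor, also fell (-0.32, adjusted p = 0.0377; named after its value was seen), and lost its call without any 1 of 7 libraries, with adjusted p of 0.0656, 0.0586, 0.0845 and 0.0803 without knockout 1, 2, 3 and 4 and of 0.0882, 0.0896 and 0.0527 without wildtype 1, 2 and 4. Ramp2, the co-receptor that makes the calcitonin-like receptor respond to adrenomedullin, rose (edgeR log2 fold change 0.43 ± 0.082 SE, adjusted p = 0.00736). Gata2, which endothelium shares with collecting duct, rose (edgeR log2 fold change 0.54 ± 0.098 SE, adjusted p = 0.00535). With the clock score in the model, adjusted p was 0.0620 for Heg1, 0.212 for Ramp2 and 0.172 for Gata2.

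Of 10 arterial and Notch genes, the arterial semaphorin Sema3g fell (edgeR log2 fold change -0.39 ± 0.076 SE, adjusted p = 0.00778, or 0.0702 with the clock score in the model). Jag1, also of these 10 and a Notch ligand of vessels and tubules, rose (edgeR log2 fold change 0.59 ± 0.075 SE, adjusted p = 0.000815). Unc5b and Efnb2 had edgeR log2 fold changes of -0.35 and -0.21 (adjusted p = 0.0657 and 0.136), and DESeq2 called Unc5b. Of 5 tested venous and lymphatic genes, Ephb4, the venous ephrin receptor, fell (-0.26, adjusted p = 0.0235), and Reln, the secreted glycoprotein reelin found in lymphatic vessels, fell (edgeR log2 fold change -1.31 ± 0.26 SE, adjusted p = 0.01). The adjusted p of Reln was 0.176 with the clock score in the model and 0.109 with knockout 2 and 3 only. The lymphatic genes Lyve1 and Mmrn1 had log2 fold changes of 0.39 and 0.32 and were not called. Ephb4 lost its call without knockout 2, 3 or 4 (adjusted p = 0.0722, 0.0615 and 0.0614) and without wildtype 3 or 4 (adjusted p = 0.0617 and 0.0640). With library totals Ephb4 had -0.15 (adjusted p = 0.146), with the clock score in the model -0.17 (adjusted p = 0.339) and with knockout 2 and 3 only -0.31 (adjusted p = 0.0552).

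Genes of endothelial activation moved both ways. The adhesion molecules Vcam1 and Icam1, which injured tubule cells also make, rose (1.84 and 0.73 on the log2 scale, adjusted p = 0.000303 and 0.0244; for Icam1 adjusted p = 0.0570, 0.0543 and 0.0615 without knockout 4, wildtype 2 or wildtype 3, and 0.124 with knockout 2 and 3 only). Esm1, the VEGF-induced endothelial proteoglycan endocan, fell. It had 14.0, 7.02, 13.8 and 8.52 CPM in knockout-labelled libraries, against 32.3, 32.2, 15.0 and 21.8 CPM in wildtype-labelled libraries. The lowest wildtype library, again wildtype 3, was just above the highest knockout library (edgeR log2 fold change -1.21 ± 0.31 SE, adjusted p = 0.0380). Its call ended without knockout 2 or 4 (adjusted p = 0.0926 and 0.1) and without wildtype 1, 2 or 4 (adjusted p = 0.0904, 0.0897 and 0.0618). It also ended with limma voom, with no filter, with the clock score in the model and with knockout 2 and 3 only (adjusted p = 0.0562, 0.106, 0.112 and 0.163). The flow-responsive factor gene Klf2 had 0.15 on the log2 scale, uncalled, or -0.19 with the clock score in the model. The selectins Sele and Selp did not pass the filter on low counts.

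None of 11 tested VEGF and hypoxia genes was called by edgeR; 2 had an unadjusted p under 0.05, and DESeq2 called 1, Plcg1. Epas1, the hypoxia-inducible factor gene of endothelium and interstitium, had a log2 fold change of -0.15 ± 0.072, and the oxygen sensor gene Egln1 had -0.16 ± 0.065 (SE; adjusted p = 0.195 and 0.145). Plcg1, the phospholipase downstream of VEGFR2, had 0.22 (adjusted p = 0.0544), and Angptl4, a hypoxia and lipid responsive secreted protein, had 0.67 (adjusted p = 0.276). Of 12 modulators, 2 rose and none fell. Col18a1, the collagen that releases the inhibitor endostatin and lies in all renal basement membranes, averaged 553 ± 17.4 CPM in knockout-labelled libraries and 327 ± 29.7 CPM in wildtype-labelled libraries (SD, n = 4 each; edgeR log2 fold change 0.76 ± 0.081 SE, adjusted p = 0.000250). Sema3c rose (0.53, adjusted p = 0.0315; 0.0919, 0.0669, 0.0704 and 0.0782 without knockout 2, 3 or 4 or wildtype 1). With the clock score in the model Sema3c had 0.24 (adjusted p = 0.516), and with knockout 2 and 3 only its adjusted p was 0.0768. The antiangiogenic thrombospondin gene Thbs1 and the protease gene Adamts1 had 0.36 and 0.46; without wildtype 4 both were called (adjusted p = 0.00835 and 0.00725).

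**Figure D5:**
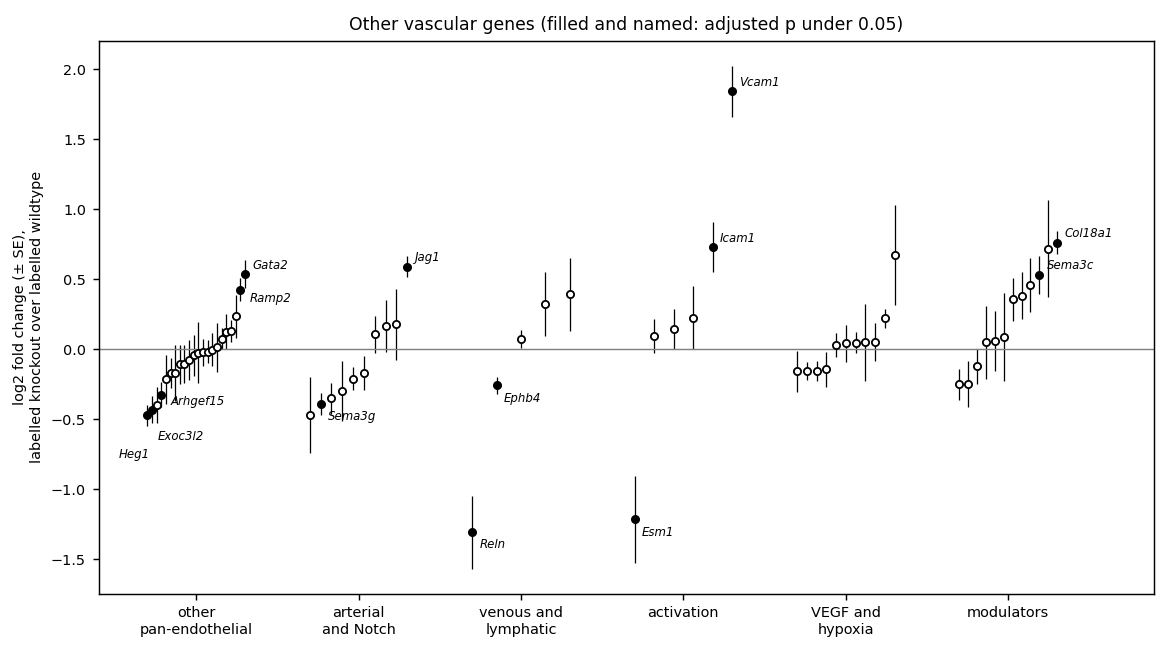
Log2 fold change with standard error (edgeR, labelled knockout over labelled wildtype, n = 4 each) of 66 other vascular genes in 6 lists; filled points are called and named. Of the called genes, 7 lie above and 7 below 0, with Vcam1 highest and Reln and Esm1 lowest.

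Markers of other cell types also differed between the groups. Of 10 podocyte markers, 3 fell and none rose. Nphs1, which encodes nephrin of the slit diaphragm, had -0.50 on the log2 scale (adjusted p = 0.0112) and Clic5 had -0.39 (adjusted p = 0.0301); Podxl, which endothelium shares, had -0.34 (0.0718). Summed podocyte markers ran over 551 to 714 CPM in knockout-labelled libraries and 679.6 to 887 CPM in wildtype-labelled libraries. All 5 thick limb and all 5 distal convoluted tubule markers fell, Slc12a1 of the thick limb by 0.48 on the log2 scale. Of 8 proximal tubule markers, 3 fell and none rose, with sums of 6242 to 10143 CPM in knockout-labelled libraries and 11907 to 14024 CPM in wildtype-labelled libraries. Of 6 collecting duct markers, 4 rose and none fell, the water channel genes Aqp2 (1.17) and Aqp3 (1.18) among them, with sums of 1157 to 1922 CPM in knockout-labelled libraries and 783 to 1053 CPM in wildtype-labelled libraries. Of 10 mesangial and pericyte markers, 1 fell, renin (Ren1, -1.06, 0.0469). Of 10 macrophage markers, 9 rose, and the other, Csf1r, had 0.00; their sum ran over 339 to 556 CPM in knockout-labelled libraries and 186 to 232 CPM in wildtype-labelled libraries. Macrophages share Pecam1, Icam2 and Nrp1 with endothelium. Summed lymphocyte markers ran over 16.8 to 70.2 CPM in knockout-labelled libraries and 12.5 to 23.3 CPM in wildtype-labelled libraries. Cd8a alone held 58.0 CPM in knockout 2 and 41.2 CPM in knockout 3, where the sums were highest. None of 9 tested lymphocyte markers was called by edgeR, and 1 had an unadjusted p under 0.05. Of 3 tested platelet markers, Pf4 rose (1.86, 0.00120). Ppbp and Itga2b were not called (-0.64 and -0.01 on the log2 scale, edgeR adjusted p = 0.398 and 0.960). All 6 red cell markers had log2 fold changes below 0, and their sum ran over 263 to 448 CPM in knockout-labelled libraries and 483 to 945 CPM in wildtype-labelled libraries, without overlap; wildtype 1 was the highest. Of these, 1 was called, Hba-a2 (edgeR log2 fold change -8.93, adjusted p = 0.00205). It had 0 to 3 counts in knockout-labelled libraries and 265 to 869 counts in wildtype-labelled libraries. Its near-identical copy Hba-a1, which makes its count uncertain, had a log2 fold change of -0.29 and was not called. The cause of the difference in Hba-a2 was not tested. Slc4a1 was in both the red cell and the collecting duct list. It held 98.5 ± 15.1 CPM in knockout-labelled libraries and 113 ± 14.7 CPM in wildtype-labelled libraries (SD, n = 4 each), so neither sum is of 1 cell type alone. Adrenal medulla markers were at 0 to 0.644 CPM in every library. The part of these cell types in the values of the endothelial and angiogenic genes was not tested.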

How the data were processed

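RNA of whole mouse kidneys was made into libraries with a directional kit from 200 ng of total RNA and 15 PCR cycles, per the labels' protocols. STAR, HTSeq, edgeR and build mm9 are named in the submitters' processing notes, with no version. The authors deposited raw read counts per Ensembl gene, counted without strand by the deposited files' own names. Reads over bases shared by a gene and its antisense partner therefore cannot be placed by strand. HTSeq listed 2.17% to 2.42% of the entries per library as ambiguous, outside the gene counts. Summary lines of HTSeq, which held unassigned reads, stayed out of library sizes; genes held 63.8% to 69.1% of the entries. Symbols were matched for 32860 of 37583 identifiers.

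Genes passing edgeR's filterByExpr (15228) were fitted with TMM factors and the robust quasi-likelihood test (edgeR 4.0.16, R 4.3.3), 4 libraries per group and no covariate, with Benjamini-Hochberg adjustment over all of them. A prior count of 2 entered only the log2 CPM of the clock score and of the comparison of same-numbered libraries. Fold changes of edgeR kept its default prior count. Alternatives were DESeq2 1.42.0 size factors and test, library totals, upper quartile factors, limma 3.58.1 voom, no filter or at least 1 CPM in 4 libraries, thresholds of 0.01 and 0.10, a replicate block, a clock score term, knockout 2 and 3 only, and each library left out. No pair of libraries was a duplicate. Exon lengths came from GENCODE M21 and promoters from RefSeq GRCm38.p6, not the authors' build.

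Every member is named, with each library's value for called members and the 2 others of smallest adjusted p in each role group; Vwf and Angpt2 were given that way after their values were seen. Of other lists, at most 4 genes of smallest adjusted p are named, plus Arhgef15, Csf1r, Hba-a1, Slc4a1 and Tfap2b. The members and lists were chosen with earlier results of these data known. The values of 1 podocyte marker are not reported here.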

Additional observations from a re-analysis of the deposited data

Results flagged for a closer look

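Single libraries stood apart from the rest of their group for 3 of the 39 members, in 3 of 78 groups of 4 libraries; chance alone flags about 1 group in 20. The measure is the gap of the extreme library to its nearest neighbour over the range of the group, set against Dixon's critical value. For Ednrb, knockout 1 was the lowest of its group, with a gap of 0.8419 of the range. For Pgf, wildtype 1 was the lowest of its group, with a gap of 0.8539, at 14 to 28 counts per library. For Angpt2, knockout 4 was the highest of its group, with a gap of 0.9038, and this was the library with 242 CPM of adrenal cortex transcripts; whether the 2 are connected was not tested.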

How the results depend on the processing

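Over all genes 1817 were called, and 706 at a threshold of 0.01, 2850 at 0.10, 700 with the clock score as a term, 912 with knockout 2 and 3 only, and 1076 to 1940 with 1 library left out. Against 5 falling members there were 3 with library totals only, 9 with the DESeq2 test, 2 at a threshold of 0.01, 13 at 0.10, 1 with knockout 2 and 3 only, and 3 to 9 with 1 library left out. Against 2 rising members there were 0 at a threshold of 0.01, 0 with the clock score, 1 with knockout 2 and 3 only, and 0 to 2 with 1 library left out. Of other vascular genes, 7 rose, and 4 with the clock score and 5 to 9 with 1 library left out; 7 fell, and 2 at a threshold of 0.01, 2 with the clock score, 2 with knockout 2 and 3 only and 4 to 8 with 1 library left out. The clock score differs between the groups, so it and the genotype cannot be fully told apart, and the cause of the other changes was not tested.

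Replicate numbers did not pair the samples: deviations of same-numbered libraries correlated at -0.215, -0.21, -0.0527 and 0.157, and not every library correlated best with its own number. With the replicate block 1094 genes were called, 1 member rose, 3 members fell and 4 other vascular genes fell.

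Over the members and the other vascular genes named, which alone were refitted gene by gene (cell type markers and Tfap2b were not), 1131 values kept their direction and side of the threshold, 94 lost a call, 33 gained one and 22 changed sign. In these settings signs changed for genes without a call. With the clock score as a term the log2 fold change was -0.11 for Cldn5, -0.041 for Nos3, 0.042 for Nrp2, -0.14 for Aplnr, 0.010 for Apln and -0.19 for Klf2. With library totals it was 0.042 for Erg and 0.047 for Angpt2. With knockout 2 and 3 only it was -0.023 for Ets1 and -0.14 for Aplnr. For Nos3 it was -0.0074 with limma voom and -0.00066 with the replicate block. With 1 library left out it ran from -0.072 to 0.050 for Nos3, -0.066 to 0.080 for Ets1, -0.16 to 0.20 for Aplnr and -0.19 to 0.0091 for Angpt2. Low depth limits Pgf, Sox7 and Vegfc most, at 14 to 28, 60 to 97 and 62 to 137 counts per library.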
